A study of Mus musculus with 12 samples.

Results

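Most of the genes described here encode proteins that package DNA in developing male germ cells. They are the testis histones Hist1h1t, Hist1h2ba and Hist1h2aa and the H3.3 genes H3f3a and H3f3b. With them are the transition proteins Tnp1 and Tnp2 and the protamines Prm1 and Prm2. Prm3, a gene of the protamine cluster, is included and counted with the protamine genes by its name. All were chosen by name, and 10 of 10 were found among the 55471 genes of the deposited table, of which 49216 hold counts. The table listed 7 under these names and 3 under newer ones (Hist1h1t as H1f6, Hist1h2ba as H2bc1 and Hist1h2aa as H2ac1), and those 3 were matched by Ensembl ID. RNA was sequenced from cultured C57Bl mouse germ cells, sorted by flow cytometry from animals with tdTomato in their germ cells; the sources used here do not give the driver of tdTomato, the age or the number of animals. Leptotene and zygotene cells (LZ) were cultured for 6 days, and treated cells received octyl-L2HG at 0.3 mM, a form of L-2-hydroxyglutarate that enters cells. The later cells, in pachytene and diplotene (PD), were cultured for 48 hours, and treated cells received oxamate at 24 mM, which blocks lactate dehydrogenase and, according to the series text, brings 2-hydroxyglutarate of PD cells to the LZ level. Each of the 4 groups had 3 libraries, and the series text speaks of 3 experiments. The names A, B and C used here stand for a code in the column names that the groups share, and whether it marks the experiments is not given in the sources used for this work.

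During meiosis the nucleus still holds nucleosomes, to which testis-specific variants such as the linker histone H1t (Hist1h1t), the H2B variant TH2B (Hist1h2ba) and the H2A variant TH2A (Hist1h2aa) are added. After meiosis, in elongating spermatids, histones are evicted, transition proteins take their place, and protamines then compact the DNA of the sperm head. Transition protein and protamine genes are known to be transcribed mainly in round spermatids, with their mRNAs stored before translation. H3.3, the replacement form of histone H3 that is deposited outside DNA replication, is made as the same protein from H3f3a and H3f3b.

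In GRCm38, the build of the table, Prm1 (16:10796326-10805839), Prm2 (16:10791380-10796134), Prm3 (16:10790505-10790914) and Tnp2 (16:10787936-10788660) lie side by side on the minus strand of chromosome 16. Tnp1 lies on chromosome 1 (1:73015074-73015909, minus strand). Hist1h2ba (13:23933773-23934156, minus strand) and Hist1h2aa (13:23934462-23934851, plus strand) are divergent neighbours on chromosome 13, where Hist1h1t also lies (13:23695814-23696725, plus strand). H3f3a (1:180800832-180813943) and H3f3b (11:116021912-116027962) are on the minus strands of chromosomes 1 and 11. The annotation of all of these is protein-coding.

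The promoters of the protamine and transition protein genes are shown because these 5 genes moved together between the stages. Promoters were found for 7 of the 10 genes (RefSeq, GRCm38.p6), and the 100 bases before the start are printed, with capitals for the palindrome TGANNTCA, which includes the cAMP response element and near forms of it, and for TATAA, each searched on both strands.
Prm1 (chr16:10796824-10796923, minus strand): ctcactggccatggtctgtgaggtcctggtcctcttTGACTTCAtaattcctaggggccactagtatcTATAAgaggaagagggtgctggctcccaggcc
Prm2 (chr16:10792106-10792205, minus strand): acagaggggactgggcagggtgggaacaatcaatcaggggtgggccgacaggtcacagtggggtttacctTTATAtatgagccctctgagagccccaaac
Prm3 (chr16:10790915-10791014, minus strand): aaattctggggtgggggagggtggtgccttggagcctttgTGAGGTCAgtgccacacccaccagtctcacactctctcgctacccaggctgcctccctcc
Tnp1 (chr1:73015900-73015999, minus strand): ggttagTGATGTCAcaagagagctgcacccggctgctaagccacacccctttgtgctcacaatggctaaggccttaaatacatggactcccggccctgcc
Tnp2 (chr16:10788656-10788755, minus strand): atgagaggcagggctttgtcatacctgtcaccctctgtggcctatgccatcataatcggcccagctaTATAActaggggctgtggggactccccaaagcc
TGANNTCA was found in Prm1 (position -64 from the start), Prm3 (-60) and Tnp1 (-94). The letters TATAA were found in Prm1 (-32) and Tnp2 (-33), and on the other strand in Prm2 (-30). The full element TGACGTCA was in none of the printed windows. Among 32851 promoters, 6.34% held TGANNTCA, 1.15% TGACGTCA and 10.2% TATAA in the same 100-base window. TGACGTCA also counts as TGANNTCA. H3f3b, whose promoter was searched as well, had TATAA at -27.

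Libraries held 10532504 to 21275486 counts. Values are normalized counts, scaled for library size and composition (trimmed mean of M values, TMM). Log2 fold changes were taken after adding 1 to each normalized count, which by itself shrinks changes of low genes. A near-empty library in a group can also widen them, since means of log2 values are compared. Tests are limma fits over all 12 libraries with Benjamini-Hochberg adjusted p-values over all genes tested, called at an adjusted p under 0.05. Markers of the labelled stages were present, as sums of 10 genes each: those of leptotene and zygotene took 0.239% to 0.333% of counts in untreated LZ and 0.0296% to 0.0381% in untreated PD libraries, and those of pachytene and diplotene 0.0757% to 0.125% and 1.36% to 1.40%. Of the first list 7 were lower in PD and 3 higher, Mei1 (28.4 to 179 normalized counts), Spo11 (629 to 1259) and Rec8 (83.2 to 549). Sertoli cell markers took 0.0346% to 0.0386% of counts in untreated LZ, but 94.9% of that sum was the protease gene Ctsl. The other 9 took 0.00162% to 0.00214% in untreated LZ, against 0.000164% to 0.000197% in untreated PD. Most of that came from Amhr2 and Amh, at means of 147 and 62.2 normalized counts in untreated LZ and 20.7 and 10.2 in untreated PD. Sox9 and Wt1 had means of 1.55 and 3.95 in untreated LZ, and Fshr 0. Stage, culture time and sort cannot be told apart, and in these bulk samples neither can more cells of a type and more RNA per cell.

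Of these genes, untreated PD cells differed from untreated LZ cells most in the protamine and transition protein mRNAs, which were nearly absent from LZ and present in every PD library. H3f3a was higher and H3f3b lower, so that the balance of the 2 H3.3 genes changed, and Hist1h2ba was lower. Of the 10 genes 6 were called higher, where 50.8% of all 16881 tested genes were, and 2 lower, where 38.9% were. Hist1h1t and Hist1h2aa were not called. Over all tested genes the median log2 change was 0.49, and it was -0.08 when libraries were scaled by their total counts, so that changes are best read against that shift.

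**Figure D1:**
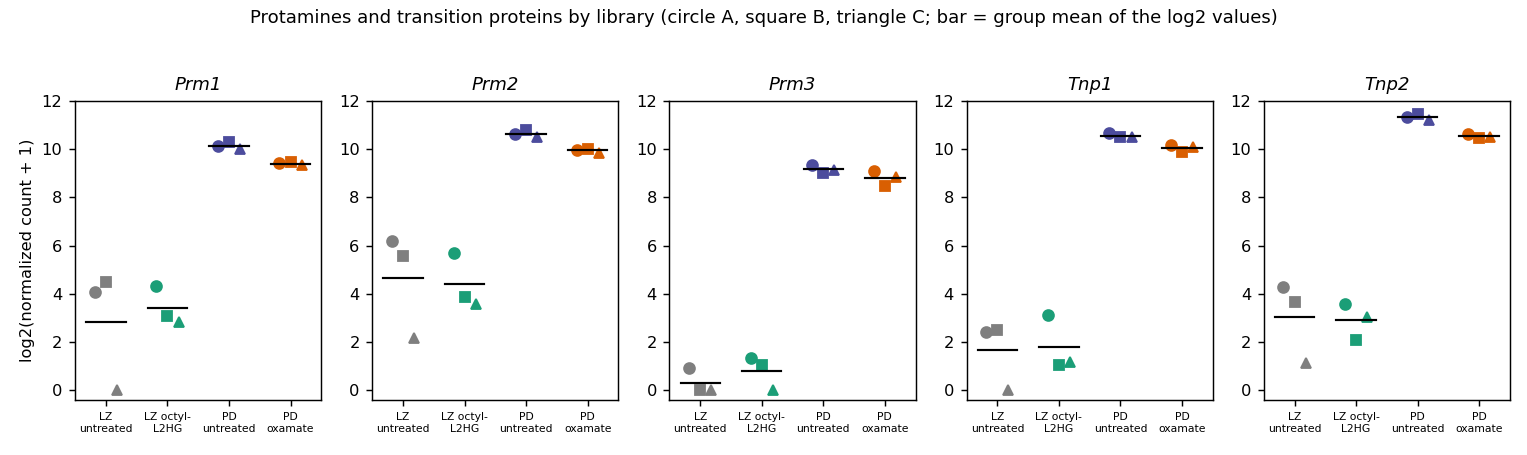
Each point is the log2(normalized count + 1) of 1 library (circle A, square B, triangle C) in the 4 groups, with a panel per gene; the bar is the mean of the 3 log2 values. All 5 genes lie above 8 on this scale in the PD libraries and below 7 in the LZ libraries, and the LZ points of one gene are far more spread than the PD points.

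Tnp1, a transition protein that enters chromatin as histones leave, had 4.35, 4.69 and 0 normalized counts in untreated LZ libraries A, B and C and 1625, 1469 and 1462 in untreated PD. Tnp2, the zinc-binding transition protein, had 18.3, 11.7 and 1.15 against 2574, 2853 and 2410. The groups lay far apart for both, and LZ library C was the lowest. The log2 fold change was 8.93 (SE 0.66, adjusted p = 8.48e-08) for Tnp1 and 8.33 (SE 0.69, adjusted p = 6.47e-07) for Tnp2.

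Prm1, the protamine made in its mature form, had 15.6, 21.1 and 0 normalized counts in untreated LZ and 1138, 1256 and 1035 in untreated PD. Prm2, which is made as a precursor and then cleaved, had 73.0, 45.8 and 3.44 against 1579, 1801 and 1473. Prm3, a gene of the same cluster, had 0.869, 0 and 0 against 643, 519 and 568. Again every PD library stood above every LZ library. The log2 fold changes were 7.31 for Prm1 (SE 0.99, adjusted p = 5.16e-05), 6.02 for Prm2 (SE 0.95, adjusted p = 0.000178) and 8.87 for Prm3 (SE 0.36, adjusted p = 9.23e-12).

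Raw counts in LZ cells were few, so the ratio of pooled counts, scaled for depth, was also taken, with exact 95% intervals that cover counting error only. It was 36.6 for Prm2 (30.6 to 44.0, from 126 LZ counts) and 90.4 for Prm1 (65.1 to 129, from 36). It was 233 for Tnp2 (165 to 341, from 32), 483 for Tnp1 (254 to 1057, from 9) and 1654 for Prm3 (296 to 65368, from 1). The fitted log2 changes equal 159-fold for Prm1 and 64.9-fold for Prm2, above these intervals. They equal 323-fold for Tnp2, 486-fold for Tnp1 and 467-fold for Prm3, within them. Prm2 had the smallest pooled ratio, with an interval below those of the other 4 genes. The intervals leave out the spread between libraries, and Prm2 ran from 3.44 to 73.0 normalized counts in untreated LZ. With that spread the fitted log2 changes were 6.02 (SE 0.95) for Prm2 and 7.31 (SE 0.99) for Prm1, and no test between genes was made.

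LZ library C had 4 raw counts of these 5 genes in all, and the highest LZ library had 129. Round spermatid markers, a list of 15 genes, were not as low in that library: their summed normalized counts were 261, 185 and 170 in A, B and C. Elongating spermatid markers were lowest in library C once Odf2, their most counted gene, was left out. The other 14 summed to 67.7 normalized counts in C and 199 in A. Without LZ library C the log2 fold changes were 5.89 for Prm1, 4.78 for Prm2, 8.11 for Tnp1 and 7.38 for Tnp2. Without LZ library B those of Prm1 and Tnp1 were 8.14 and 9.37, and without A those of Prm2 and Tnp2 were 6.80 and 8.96. The calls stood without each of the 6 libraries in turn.

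The makeup of the summed counts also differed between the stages. Prm2 made up 61.8% of the 204 counts of these 5 genes in untreated LZ libraries (exact 95% interval 54.7 to 68.5, counting error only) and 21.6% of the 21592 counts in untreated PD. Tnp2 made up 15.7% (10.98 to 21.42) and 34.96%, and Tnp1 4.41% (2.04 to 8.21) and 20.4%. Within libraries, Tnp1 had 0.222 to 0.278 counts per Prm1 count in the LZ libraries with Prm1 counts and 1.17 to 1.43 in PD. The ranges did not overlap, but 1 LZ library could not give a ratio and no test was made. Per kilobase of exon, Tnp2 had the highest level in untreated PD, 4716 ± 404 (SD, n = 3) normalized counts, above Tnp1 at 3475 ± 211, with Prm1 at 2002 ± 193, Prm2 at 1809 ± 187 and Prm3 at 1407 ± 152. Prm1 and Prm2 lay within their spread of each other.

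Marker lists of spermatids moved with these mRNAs. Of 15 round spermatid markers 15 were called higher in PD, as were 15 of 15 elongating spermatid markers and 50.8% of all 16881 tested genes. Round spermatid markers took 0.00136% to 0.00189% of counts in untreated LZ and 0.188% to 0.221% in untreated PD, and elongating spermatid markers 0.0319% to 0.0374% and 0.516% to 0.561%. Odf2, a sperm tail protein gene, was 97.1% of the elongating spermatid sum in LZ and 57.6% in PD, and the other 14 genes took 0.000542% to 0.00144% and 0.209% to 0.249%. The 5 genes together took 0.0385% to 0.0436% of PD counts. The part of spermatids in the sorted PD cells in these values was not tested.

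Reads of overlapping genes are uncertain, since the strand setting of the counting is not given. Prm1 overlaps Gm10343 and Gm46563, which had 74 and 91 raw counts in untreated PD beside 3296 of Prm1. Tnp1 overlaps 1700027A15Rik, with 659 beside 4404. H3f3a overlaps H3f3aos, with 175 beside 16645, and the H3.3 gene copies H3f3a-ps1, H3f3a-ps2 and H3f3c had at most 2 each.

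The H3.3 genes went opposite ways. H3f3a had 3619, 2691 and 3094 normalized counts in untreated LZ libraries A, B and C and 5827, 5519 and 5777 in untreated PD, and all PD values were higher (log2 fold change 0.87, SE 0.11, adjusted p = 3.42e-06). H3f3b had 24648, 13823 and 16337 against 7648, 7286 and 7468, and all PD values were lower (log2 fold change -1.25, SE 0.17, adjusted p = 6.44e-06). Both calls kept their direction with total-count scaling, at 0.39 and -1.73. H3f3b counts per H3f3a count were 5.74 ± 0.928 in untreated LZ (range 5.14 to 6.81) and 1.31 ± 0.0142 in untreated PD (SD, n = 3), a ratio that does not depend on the scaling of libraries. The smallest p that an exact permutation test of 3 against 3 libraries allows is 0.1, so none is given. Both genes together took 0.134% to 0.204% of counts in LZ and 0.0707% to 0.0761% in PD.

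**Figure D2:**
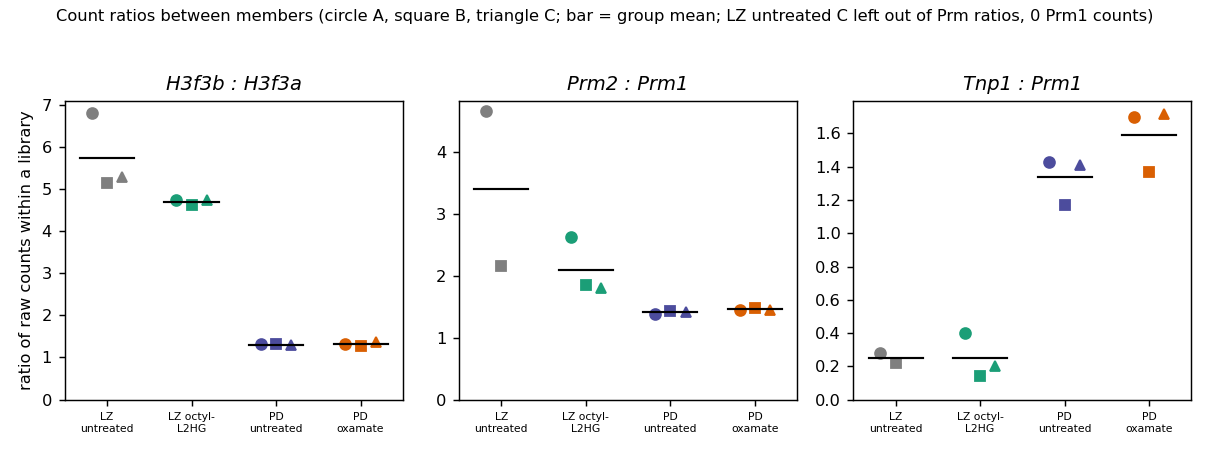
Ratios of raw counts within each library (circle A, square B, triangle C; bar, group mean) for H3f3b to H3f3a, Prm2 to Prm1 and Tnp1 to Prm1. H3f3b to H3f3a falls from above 4.6 in the LZ libraries to about 1.31 in the PD libraries, with untreated LZ library A the highest.

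The clustered testis histones were counted at low levels, from 12.3 to 72.8 normalized counts over the 12 libraries. The libraries were made by poly-A capture, and mRNAs of clustered histone genes are known to end largely in a stem-loop without a poly(A) tail. Their levels are therefore not compared with those of other genes. Differences between groups are those of captured mRNA, and the part of the mRNA with a poly(A) tail was not measured. Hist1h2ba had 70.4, 54.0 and 42.4 in untreated LZ and 25.6, 33.2 and 28.0 in untreated PD, without overlap (log2 fold change -0.90, SE 0.29, adjusted p = 0.00953). Hist1h2aa had 53.9, 28.2 and 21.8 against 26.8, 35.4 and 21.2. These overlapped (log2 fold change -0.23, SE 0.33, adjusted p = 0.511), and with total-count scaling the gene was called lower (-0.70, adjusted p = 0.0494). Hist1h1t had 17.4, 18.8 and 25.2 against 19.8, 16.0 and 28.8, which overlapped too (log2 fold change 0.05, SE 0.32, adjusted p = 0.889).

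**Figure D3:**
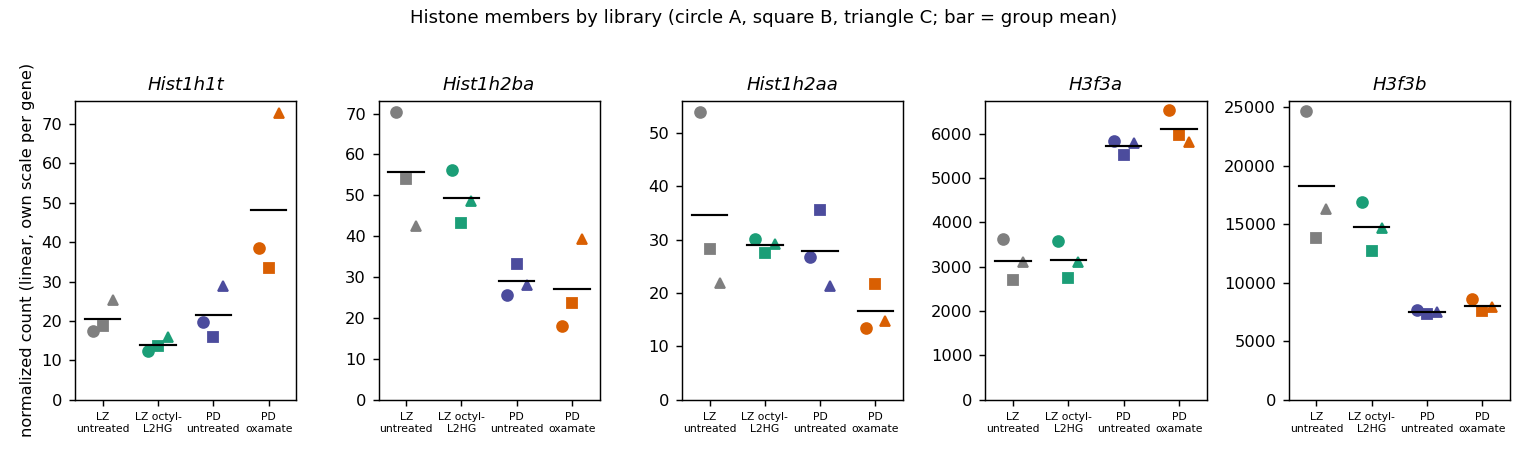
Normalized counts on linear axes from 0, one point per library (circle A, square B, triangle C) and the group mean as a bar, each gene on its own scale. H3f3a is higher and H3f3b lower in every PD library, and Hist1h1t is highest in the 3 oxamate libraries, led by library C at 72.8.

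Other genes of the histone-to-protamine transition were taken as 4 lists, whose counts stand beside 50.8% higher, 38.9% lower and a median log2 change of 0.49 among all tested genes. Of 17 tested testis and replacement histone variants 11 were higher in untreated PD and 5 lower, with a median log2 change of 1.46. Hils1 and H1fnt, linker histones of spermatids, rose to 1975 ± 431 and 2443 ± 246 normalized counts from means of 0.58 and 1.55, and Hist3h2a rose by a log2 change of 1.49. H1f0, the linker histone of differentiated cells, H2afv, an H2A.Z gene, and H2afx, whose phosphorylated product marks DNA breaks and the sex body, were lower at -4.43, -3.69 and -2.80. Hist1h1t was not called between the same stages, but as a clustered histone gene under poly-A capture it is not compared with Hils1 and H1fnt.

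Genes that control protamine and transition protein mRNA were mostly higher, 23 of 29, with 5 lower and a median of 3.16. The largest rises were those of Pabpc2, a poly(A)-binding protein of the testis, at 11.55, Tdrd6, a chromatoid body protein, at 9.78 and Fhl5, a coactivator of the transcription factor CREM, at 9.29. Taf7l, an X-linked TFIID subunit, and the translation repressors Paip2b and Paip2 were lower at -5.85, -3.80 and -1.30. Of 25 histone removal factors 12 were higher and 11 lower (median 0.10), close to the shares among all genes. Zmynd15, a repressor of haploid genes, the kinase Camk4 and the chromatin remodeller Chd5 were higher at 7.92, 7.57 and 5.05, and Top2b, a topoisomerase, and Epc2 lower at -6.74 and -2.41. Of 22 histone chaperones and exchange factors 8 were higher and 13 lower (median -0.52). Ipo4, an importin, Chaf1a, a subunit of CAF-1, and Hspa2, the chaperone of transition proteins, were higher at 3.598, 2.52 and 2.17. Atrx, which acts in H3.3 deposition, Anp32e, which removes H2A.Z, and Hira, an H3.3 chaperone, were lower at -8.80, -4.93 and -2.29.

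The genes with the most similar profiles over the 12 libraries were ranked by the Euclidean distance between centred log2 profiles, as a description. For Prm1 they were Wbscr25 (distance 1.42), Prm2 (2.06) and Tppp2 (2.11), and for Tnp2 they were Spem2 (1.49), Tnp1 (1.69) and Ccdc188 (1.74). H3f3b was closest to Tob2, Rsl24d1 and Slain1 (0.371 to 0.423), and Hist1h2ba to Tcaim, Zfand2a and Wdr73 (0.747 to 0.821). For Hist1h1t they were Upf2, Majin and Zc3h11a (1.37 to 1.43).

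The LZ treatment tests the effect of more L-2-hydroxyglutarate early in meiosis, and none of these genes was called. Of the 10, 7 were tested, and Prm3, Tnp1 and Tnp2 lay under the minimum mean of 10 normalized counts. limma called 0 of the 7, and 0 had an unadjusted p under 0.05. Of all 13039 tested genes 0.276% were called higher and 0.0307% lower.

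Protamine and transition protein mRNAs stayed few with octyl-L2HG and overlapped those of untreated LZ cells. Prm1 had 19.3, 7.40 and 6.08 normalized counts in libraries A, B and C, and Prm2 50.8, 13.7 and 10.9. Their log2 fold changes were 0.57 (SE 0.99, adjusted p = 0.869) and -0.25 (SE 0.95, adjusted p = 0.952). With errors of this size a change of 2-fold in either was not detectable. Tnp1 had 12 raw counts in the 3 treated libraries and 9 in the untreated, Tnp2 23 and 32, and Prm3 3 and 1.

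H3f3b had 16895, 12710 and 14693 normalized counts with octyl-L2HG, which overlapped the untreated values (log2 fold change -0.27, SE 0.17, adjusted p = 0.524). For H3f3a, at 3571, 2749 and 3104, the log2 fold change was 0.01 (SE 0.11, adjusted p = 0.993). The ratio of H3f3b to H3f3a was 4.70 ± 0.0634 (range 4.62 to 4.73), below each of the untreated values, with no test. Hist1h1t had 12.3, 13.7 and 15.8 against 17.4, 18.8 and 25.2 untreated, without overlap, from 42 and 58 raw counts. The share of all genes without overlap was not taken for this comparison. It was not called (log2 fold change -0.51, SE 0.32, adjusted p = 0.548). Hist1h2ba and Hist1h2aa overlapped, with log2 fold changes of -0.15 each (SE 0.29 and 0.33). limma called no member of the other 4 lists either, of 11 histone variants, 22 chaperones, 23 removal factors and 27 genes of mRNA control that were tested.

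The PD treatment tests the effect of less 2-hydroxyglutarate, with lactate dehydrogenase blocked, later in meiosis. Prm1, Prm2, Tnp1 and Tnp2 had 29.1% to 42.6% lower mean normalized counts with oxamate, without overlap between the groups, and Hist1h1t had a higher mean, also without overlap. The fit over 12 libraries called 0 of the 10 genes, and 1, Hist1h1t, had an unadjusted p under 0.05. Of all 15233 tested genes it called 6.13% higher and 1.65% lower. A fit over the 6 PD libraries alone called 4 of the 10 lower and none higher, where it called 4.95% of 16401 genes lower and 7.21% higher. Groups did not overlap, with oxamate lower, for 4 of the 10 against 13.7% of all genes, and with oxamate higher for 1 of the 10 against 20.7%.

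Tnp2 had 1587, 1435 and 1474 normalized counts with oxamate against 2574, 2853 and 2410 without. Prm1 had 689, 701 and 643 against 1138, 1256 and 1035. Prm2 had 999, 1037 and 933 against 1579, 1801 and 1473. In all 3 every oxamate library lay below every untreated one. Tnp1 had 1170, 958 and 1104 against 1625, 1469 and 1462, also without overlap. Prm3 had 542, 359 and 458 against 643, 519 and 568, which overlapped.

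In the fit over PD libraries the log2 fold changes were -0.82 for Tnp2 (SE 0.08, adjusted p = 0.00204), -0.77 for Prm1 (SE 0.09, adjusted p = 0.00254), -0.72 for Prm2 (SE 0.09, adjusted p = 0.00287) and -0.52 for Tnp1 (SE 0.09, adjusted p = 0.00831). Prm3, at -0.38 (SE 0.15, adjusted p = 0.127), was not called. The 4 calls stood without each of the 6 libraries in turn, with adjusted p-values of at most 0.0364. In the fit over 12 libraries nearly the same changes had far larger errors, for instance -0.75 for Prm1 with an SE of 0.99 and an adjusted p of 0.783. The SD of its log2 values was 0.139 in untreated PD and 0.065 with oxamate, but 2.47 in untreated LZ and 0.814 with octyl-L2HG, and that fit shares 1 estimate of the spread. The authors' deposited table gives -0.77 for Prm1 (SE 0.68, adjusted p = 0.740), -0.74 for Prm2 (adjusted p = 0.781), -0.53 for Tnp1 (adjusted p = 0.824) and -0.84 for Tnp2 (adjusted p = 0.310), none of them called.

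**Figure D4:**
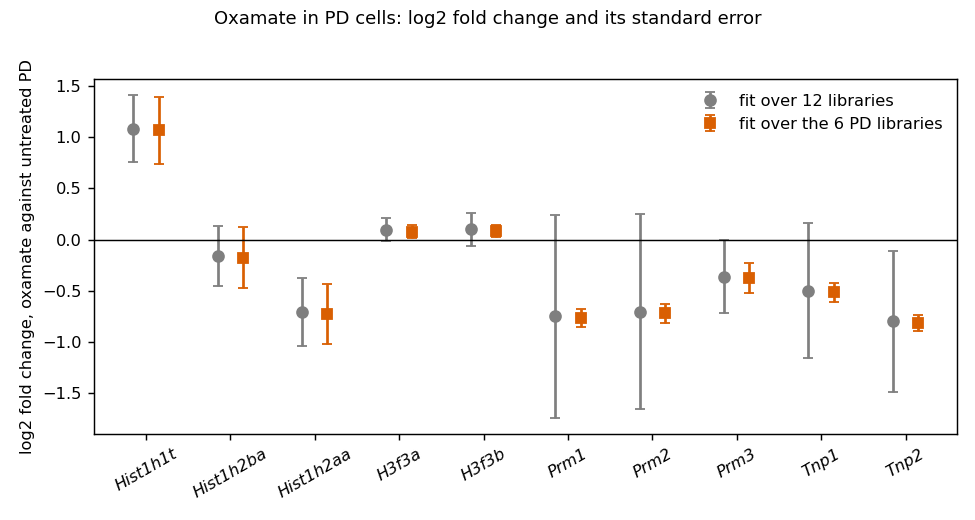
Log2 fold change of oxamate against untreated PD cells for the 10 genes, with bars of 1 standard error, from the fit over 12 libraries (circles) and over the 6 PD libraries (squares). The estimates of the 2 fits lie close together, and the bars of Prm1, Prm2, Tnp1 and Tnp2 are far shorter in the fit over PD libraries.

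The PD libraries of one code deviated together, so treated and untreated libraries of the same code were also compared. Prm1 with oxamate was at 0.605, 0.558 and 0.622 of its untreated level in codes A, B and C, and Tnp2 at 0.617, 0.503 and 0.612. Prm3, at 0.843, 0.691 and 0.807, was lower in 3 of 3 codes too. With the code as a block the fit over PD libraries called 6 of the 10 lower, adding Prm3 (adjusted p = 0.000425) and Hist1h2aa (adjusted p = 0.0337), where it called 15.2% of all genes lower. It called Hist1h1t higher (adjusted p = 0.000508), where it called 18.4% of all genes higher. That fit leaves 2 residual degrees of freedom per gene.

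The 5 mRNAs together took 0.0416 ± 0.0027% of counts in untreated PD and 0.0249 ± 0.0013% with oxamate (SD, n = 3). Prm2 to Prm1 was 1.41 ± 0.0242 without and 1.46 ± 0.0171 with oxamate, with ranges that did not overlap (1.39 to 1.43 and 1.45 to 1.48) and no test. Tnp2 made up 34.05% to 36.12% of the summed counts in the untreated libraries and 31.82% to 31.96% with oxamate, without overlap, and Tnp1 made up 20.4% of the pooled counts without and 22.95% with oxamate. Prm3 made up 7.76% (7.41 to 8.13) of the summed counts without and 9.69% (9.22 to 10.2) with oxamate, but its range over libraries overlapped, at 6.57% to 8.51% and 7.99% to 10.9%.

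Spermatid marker lists had smaller median changes than these 4 mRNAs, but several late markers changed by about as much. The summed normalized counts of the 15 round spermatid markers were 39140, 34054 and 33929 in untreated PD and 38608, 31792 and 33457 with oxamate, which overlapped. In the fit over PD libraries 0 of 15 were called lower and 1 higher, with a median log2 change of -0.12. Of the 15 elongating spermatid markers 6 were called lower and 0 higher, with a median of -0.23. The 6, named after their values were seen, were Car2 (87.9 to 37.2 normalized counts), Tex44 (263 to 177), Tssk6 (368 to 256), Spem1 (968 to 702), Cabs1 (1283 to 958) and Spata18 (1931 to 1499), at log2 fold changes of -1.25 to -0.39. Catsper3, of the round spermatid list, had -0.62 and was not called (adjusted p = 0.0556). Without Odf2 the elongating spermatid sums were 37925 to 44044 in untreated PD and 30719 to 42101 with oxamate, which overlapped. Of all genes tested over PD libraries 4.95% were called lower and 7.21% higher, and their median log2 change was 0.0046. Markers of 4 somatic cell types took smaller shares of counts with oxamate, without overlap. The ranges without and with oxamate were 0.00247% to 0.00252% and 0.00151% to 0.00166% for endothelial and 0.000562% to 0.000737% and 0.000317% to 0.000382% for peritubular markers. They were 0.000409% to 0.000467% and 0.000275% to 0.000351% for macrophage and leukocyte markers and 0.000297% to 0.000395% and 0.000175% to 0.000261% for Leydig cell markers. In the fit over PD libraries 1 of 5 tested endothelial markers was called lower. So were 1 of 3 peritubular, 1 of 3 leukocyte and 0 of 1 Leydig cell markers. Star was 86.8% of the Leydig cell sum in untreated PD. Endothelial means fell for Vwf (227 to 122 normalized counts), Pecam1 (83.4 to 60.1), Flt1 (69.8 to 59.1), Tek (33.6 to 23.9) and Kdr (10.5 to 4.18) but not for Cdh5 (23.2 to 25.3). Leukocyte means fell for C1qb (30.6 to 14.6), Ptprc (15.4 to 10.6) and Cd68 (5.15 to 4.57). Adgre1 (17.8 to 20.1) and Csf1r (9.37 to 9.56) did not fall, and C1qa was at 0 in both groups. Sertoli cell markers had 0.000252% to 0.000322% and 0.000303% to 0.000382%, which overlapped. The part of cell composition in the lower protamine and transition protein counts was not tested. The genes overlapping Prm1 and Tnp1 had fewer raw counts with oxamate too: 47 for Gm10343, 59 for Gm46563 and 460 for 1700027A15Rik.

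Hist1h1t had 38.6, 33.5 and 72.8 normalized counts with oxamate against 19.8, 16.0 and 28.8 without. The oxamate libraries were all higher, and library C was the highest in each group. The log2 fold change was 1.09 (SE 0.32, adjusted p = 0.0582) over 12 libraries. With the code as a block in that fit the adjusted p was 0.0202, and it was 0.0609 over PD libraries without the block. The authors' deposited table gives 1.11 (SE 0.32, adjusted p = 0.0135). The raw counts behind it were 151 with oxamate and 65 without, and they cover captured mRNA only.

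The other histone genes did not pass either fit without the block. H3f3a had 6536, 5976 and 5809 normalized counts with oxamate and H3f3b 8563, 7570 and 7889, each overlapping its untreated values. In the fit over PD libraries the log2 fold changes were 0.08 for each (SE 0.06, adjusted p = 0.452 and 0.407). Their ratio was 1.31 ± 0.0457, against 1.31 ± 0.0142 untreated. For Hist1h2aa, at 13.5, 21.7 and 14.8, the log2 fold change was -0.71 (SE 0.33, adjusted p = 0.242) and for Hist1h2ba, at 17.9, 23.7 and 39.4, it was -0.16 (SE 0.29, adjusted p = 0.856), both over 12 libraries.

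Few genes of the other lists were called with oxamate in the fit over 12 libraries, where 6.13% of all genes were higher and 1.65% lower. H1f0 rose by 0.53 (adjusted p = 0.0256), 1 higher and 0 lower of 15 histone variants, and was not called over PD libraries (adjusted p = 0.0804). Of 21 chaperones 2 were higher, among them Cabin1, part of the HIRA complex, at 0.37 (adjusted p = 0.0144), and 1 lower, Npm3, a nucleoplasmin, at -0.34 (adjusted p = 0.0478). Of 29 genes that control protamine and transition protein mRNA 0 were called in either direction by limma over 12 libraries, and 1 higher over PD libraries, with a median of 0.06 in the former.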

How the data were processed

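Per the labels' protocols, a stranded kit with poly-A capture was used for the 12 libraries. DESeq2 1.22.2, HTSeq 0.6.0, TopHat2 2.1.1, cutadapt 1.18, bcl2fastq 2.18.0.12 and build GRCm38 are named in the submitters' processing notes. The authors deposited raw counts per gene, 12 columns of normalized values that were not used, and their own log2 fold changes with adjusted p-values. Question marks stand in place of counts in 6255 genes, which were left out; the unit rules of this work then bar count tests, so limma 3.58.1 (limma-trend, robust, R 4.3.3) was used on log2(TMM-normalized count + 1). Genes needed a mean normalized count of 10 over the 12 libraries and over those compared. Libraries A, B and C share a code in the column names, which does not give the labelled replicate number. Same-code libraries correlated at 0.357, 0.229 and 0.292 in PD, over 0.1 in each pair, so the code was taken to pair them. No 2 libraries were identical.

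The genes and lists were chosen with earlier results of these data known. Named were the 10 genes, the 3 largest called rises and falls of each list with a mean of at least 100, and the 3 nearest profiles of 5 genes. One gene that this rule names is not reported here. Scaling, filter, pseudocount, weights, libraries in the fit, the block and left-out libraries were varied. Depth was 10532504 to 21275486 counts per library. Intervals are exact and cover counting error only.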

Additional observations from a re-analysis of the deposited data

How the results depend on the processing

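In the stage comparison all 8 calls among the 10 genes kept their direction under each alternative that tested them, and 7 to 9 were called; with total-count scaling 7477 genes were higher and 7804 lower, against 8579 and 6574. Same-code libraries correlated at 0.033, 0.035 and 0.104 between the untreated stages and at 0.048, 0.145 and 0.065 between LZ groups, so there the libraries share only a code. With the replicate block, 15267 genes were called between the stages and 49 for octyl-L2HG, with no change in the calls of the 10 genes.

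For octyl-L2HG, 40 genes were called (36 higher and 4 lower), 22 higher and 8 lower with total-count scaling, 17 in a fit over LZ libraries, 22 with voom weights, and 19 to 72 with 1 library left out (over LZ libraries 5 to 281, with 16 without untreated A, 281 without untreated B and 5 without treated A). The fit over LZ libraries with the replicate block called 456 genes and 1 of the 10, H3f3b, lower (log2 fold change -0.33, adjusted p = 0.0203).

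For oxamate, 1186 genes were called (934 higher and 252 lower), with total-count scaling 753 and 385, over PD libraries 1994, and over PD libraries with the replicate block 5504. Of the 10 genes 0 were called over 12 libraries, 1 (Hist1h1t) with a pseudocount of 5 or with the replicate block, 1 (Tnp2, adjusted p = 0.0057) with voom weights, 4 over PD libraries, and 7 over PD libraries with the replicate block. With 1 library left out, 868 to 1153 genes and 0 to 1 of the 10 were called over 12 libraries, and 708 to 1840 and 4 to 5 over PD libraries. The last fits, and those over 2 groups with the block, were chosen after seeing the data. edgeR and DESeq2 tests were not run, since the columns could not be entered as counts. No called result changed direction. Prm3, Tnp1 and Tnp2 had no octyl-L2HG test to compare. The low LZ counts limit every fold change of the protamine and transition protein genes.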
